A study of Mus musculus with 6 samples.

Results

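The genes described are *Cd74*, *H2-Aa*, *H2-Ab1*, *H2-Eb1*, *H2-DMa*, *Ciita*, and *Cd274*, 7 genes of 32287 in the count tables, matched by symbol. They were measured in single-cell RNA-seq of brain microvessel fragments from 3 C57BL/6J wild-type (WT) mice and 3 *TgApp*ArcSwe mice (ArcSwe), a transgenic Alzheimer's disease model. All 6 mice were untreated males aged 12 months. Vascular fragments were captured with CD31 antibodies on magnetic beads and dissociated, and each mouse gave 1 droplet library. The promoter that drives the transgene is not given in the sources used here. The genes were selected on their levels by cell type and genotype in these same libraries, so their levels and differences are given as descriptions. Fits over all genes are given for background, and whether one of the 7 is among their calls is no independent evidence of a difference.

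MHC class II molecules display peptides from endocytosed proteins to CD4+ T cells. Their α and β chains are assembled in the endoplasmic reticulum on the invariant chain, encoded by *Cd74*, which is cut away in endosomes before the H2-DM protein loads a peptide. Transcription of these genes depends on the coactivator encoded by *Ciita*, which is constitutive in B cells and dendritic cells and can be induced by interferon gamma in other cells. *Cd274* encodes PD-L1, a ligand that restrains T cells through the receptor PD-1 and whose transcription also responds to interferons. In the brain, class II is known from border-associated macrophages and activated microglia, while the endothelium of the blood-brain barrier normally carries little of it.

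*H2-Aa* (chr17:34282744-34287823, minus strand), *H2-Ab1* (chr17:34257689-34269419, plus strand), and *H2-Eb1* (chr17:34305867-34316674, plus strand) encode the chains. *H2-DMa* (chr17:34119541-34139101, plus strand) encodes the α chain of the peptide editor and lies in the same region of chromosome 17. *Ciita* is on chromosome 16 (chr16:10480059-10528418, plus strand) and *Cd274* on chromosome 19 (chr19:29367455-29388095, plus strand). Positions are those of the GRCm38 annotation, the same build as the mm10 reference of the count tables.

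The bases just before the start site are shown because class II promoters are known for a shared X and Y box module bound by the factors that recruit CIITA, so a reader can compare *Cd274* with the class II genes. RefSeq promoters (GRCm38.p6) were matched for 4 of the 7 genes, and *H2-DMb1*, the β chain partner of *H2-DMa*, is shown because its window holds the X box. Each line gives the 110 bases before the start site on the strand of the gene, with capitals marking matches to the motifs searched on both strands.
Cd274: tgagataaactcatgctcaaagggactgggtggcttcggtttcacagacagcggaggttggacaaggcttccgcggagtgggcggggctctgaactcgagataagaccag
H2-Aa: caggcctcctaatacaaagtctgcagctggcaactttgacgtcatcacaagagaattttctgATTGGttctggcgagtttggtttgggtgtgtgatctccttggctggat
H2-Eb1: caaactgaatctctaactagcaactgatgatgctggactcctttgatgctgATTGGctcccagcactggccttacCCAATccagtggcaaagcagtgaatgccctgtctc
H2-DMb1: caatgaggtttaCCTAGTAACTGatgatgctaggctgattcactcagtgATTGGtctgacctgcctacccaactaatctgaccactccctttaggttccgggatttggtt

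The windows are chr19:29367328-29367437 (plus strand) for *Cd274*, chr17:34287824-34287933 (minus strand) for *H2-Aa*, chr17:34305757-34305866 (plus strand) for *H2-Eb1*, and chr17:34153081-34153190 (plus strand) for *H2-DMb1*. The motifs searched were the X box, the Y box (CCAAT, or ATTGG on the other strand), and the interferon gamma activated site (TTCNNNGAA), none of which overlapped another in these windows. Over the 250 bases before the start, 4.29% of 32851 promoters held a match to the X box, 33.8% to the Y box, and 7.02% to the activated site. *H2-DMb1* matched the X box at 98 and the Y box at 61 bases before the start. *H2-Eb1* matched the Y box at 59 and 35 bases, and *H2-Aa* at 48 bases. None of the 3 motifs was found in the *Cd274* window, which says only that these letters are not there. In the last 110 bases, 7 of 8 class II genes with a promoter entry held ATTGG, against 11.2% of all promoters. Along the 20 bases that begin at the X box of *H2-DMb1*, the closest stretch of *H2-Eb1* had 17 bases equal, which 0.00913% of all promoters reached, while the closest stretch of *H2-Aa* had 10 equal, a likeness that 97.6% of promoters reached. This stretch and ATTGG were picked after the sequences were seen, and the matches are descriptions, not binding sites. A low count of bases equal to *H2-DMb1* does not show that *H2-Aa* lacks an X box written with other letters.

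The deposited libraries held 49059 cells, of which 44112 passed the filter on detected genes and mitochondrial counts. The cells kept per mouse ranged from 2379 to 13389, with a median of 2922 to 5542 UMIs (unique molecular identifiers, the count of captured RNA molecules) per cell. Pairs of libraries shared 3 to 33 cell barcodes, at most 0.546% of the smaller library. Clusters were built without the 7 genes and the rest of the class II pathway and named from marker genes, and each name below stands for cells like that type. The classes used most were barrier endothelial cells (29383 droplets), fenestrated endothelial cells (823), microglia (6761), B cells (710), and perivascular macrophages (53). All 10 fenestrated markers, among them *Plvap* and *Esm1*, were detected in the fenestrated class. For every mouse, the UMIs of a class were added up and expressed as counts scaled to a total of 1000000 (CPM), with each mouse as 1 replicate. Droplets of either endothelial class with a UMI of the microglial genes *Cx3cr1* or *Aif1* were left out, while such droplets of other classes were kept. The sums then held 632 fenestrated and 24051 barrier droplets.

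Across cell classes, class II transcripts and *Cd274* had different orders (see the plot of levels by class). Among named classes, *Cd74* was highest in B cells, at 7348 ± 1688 CPM (SD, n = 6 mice). The 2 mice with at least 10 perivascular macrophages followed, and both lay below every B cell value. Microglia came next, at 354 ± 182 CPM (SD, n = 6), clear of the fenestrated endothelial cells at 64.3 ± 49.2 CPM (SD, n = 6). From fenestrated cells downward, neighbouring classes overlapped: T and NK cells, pericytes, haemoglobin-rich droplets, barrier endothelial cells, smooth muscle cells, and choroid plexus epithelium. Barrier endothelial cells had 7.54 ± 7.08 CPM of *Cd74* (SD, n = 6) and smooth muscle cells, which should lack class II, had 5.43 ± 4.59 CPM (SD, n = 6).

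*Cd274* was also highest in B cells among the named classes, at 183 ± 62.7 CPM (SD, n = 6), then in T and NK cells at 82.2 ± 29.4 CPM (SD, n = 6). Fenestrated endothelial cells had 49.8 ± 17.5 CPM and barrier endothelial cells 29.9 ± 5.24 CPM (SD, n = 6 each). Microglia were below them at 19.0 ± 11.1 CPM (SD, n = 6), in contrast to their place for *Cd74*. Neighbours in this order overlapped from B cells down to smooth muscle cells, which had 3.34 ± 0.977 CPM (SD, n = 6). No *Cd274* UMI was found in perivascular macrophages, where 3 UMIs over all cells of the class would be 19.5 CPM, so a level like that of microglia was not detectable as different at this depth.

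**Figure D1:**
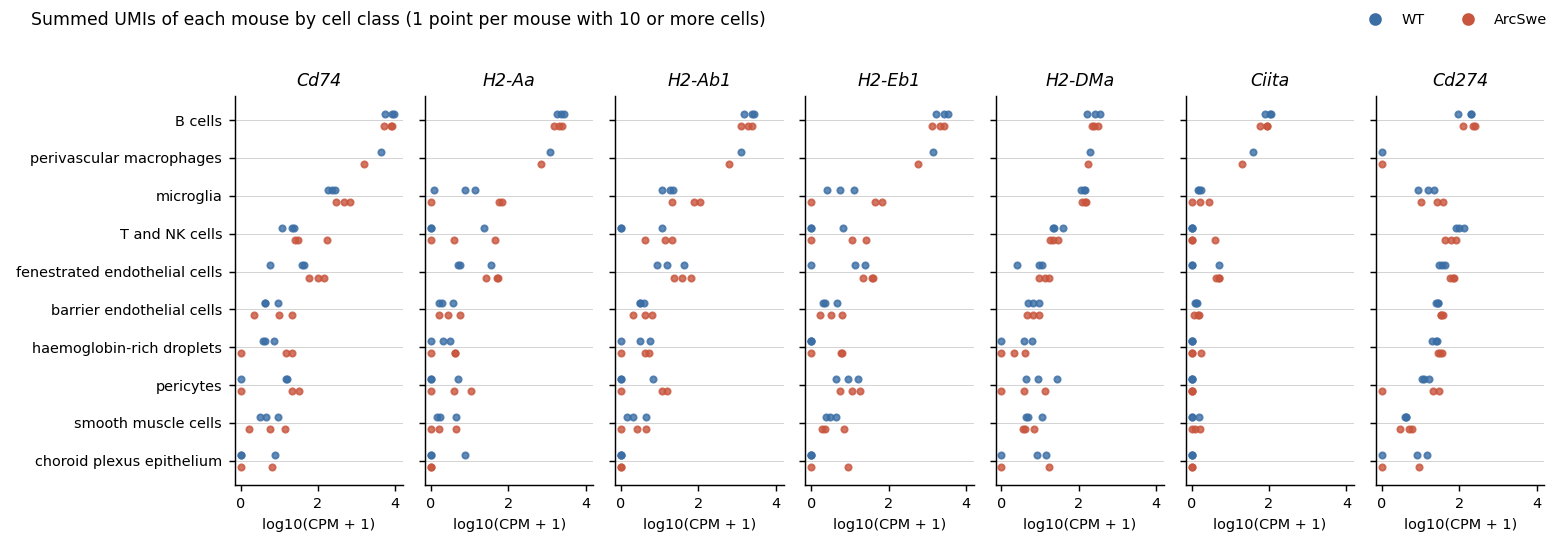
Level of each gene by cell class, as log10(CPM + 1) of the UMIs summed per mouse, with 1 point for each mouse with at least 10 cells of the class (blue, WT; red, ArcSwe). The class II genes are high in B cells and perivascular macrophages and near 0 in smooth muscle and choroid plexus cells, while *Cd274* is higher in endothelial cells than in smooth muscle cells.

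Over 64 sums in 16 classes and subclusters, the genes with the pattern most like *Cd74*, by Spearman's rho of log2(CPM + 1), were *Hcls1* (0.894), *Pik3ap1* (0.866), *Ighm* (0.865), *Rel* (0.862), and *Tank* (0.856). For *Cd274* they were *Il2rg* (0.840), *Nedd9* (0.839), *Shisa5* (0.813), *H2-Q6* (0.812), and *Sp100* (0.800). The rho between *Cd74* and *Cd274* was 0.466, while that between *Cd74* and *H2-Ab1* was 0.875. These are descriptions, since sums of 1 library share depth and free RNA.

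In fenestrated endothelial cells, the chains and *Cd74* were low and uneven in the WT mice and had higher means in the ArcSwe mice. *Cd74* had 43.5, 4.62, and 36.8 CPM in WT replicates 1 to 3 and 142, 58.8, and 99.8 CPM in ArcSwe replicates 1 to 3. Every ArcSwe mouse was above every WT mouse, and WT replicate 2 was far below the other 5. The log2 fold change of ArcSwe over WT was 2.03 (SE 0.47), and 1.43 without WT replicate 2. These values rest on few molecules, 3 to 18 *Cd74* UMIs in a WT mouse and 29 to 127 in an ArcSwe mouse.

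*H2-Aa*, the α chain of the I-A molecule, had 35.8, 4.62, and 4.08 CPM in the WT mice and 50.4, 26.3, and 53.0 CPM in the ArcSwe mice. *H2-Ab1*, its β chain, had 40.9, 7.69, and 14.3 CPM in the WT mice and 63.8, 22.3, and 36.7 CPM in the ArcSwe mice. *H2-Eb1*, the β chain of the I-E molecule, had 23.0, 0, and 12.3 CPM in the WT mice and 36.9, 20.3, and 38.7 CPM in the ArcSwe mice. For all 3 chains WT replicate 1 overlapped the ArcSwe mice, because it was above ArcSwe replicate 2. The log2 fold changes were 1.80 (SE 0.56), 1.23 (SE 0.51), and 1.71 (SE 0.61), respectively. Without WT replicate 1 they were 3.30, 2.05, and 2.59, and without ArcSwe replicate 1 that of *H2-Ab1* was 0.65. Without WT replicate 2 that of *H2-Eb1* was 0.98. In the 16 or 17 alternative settings in which they could be fitted, all 4 of these genes kept a positive fold change.

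*H2-DMa* and *Ciita* had too few UMIs in fenestrated cells to be fitted. *H2-DMa* had 10.2, 1.54, and 8.17 CPM in the WT mice and 15.7, 12.2, and 8.15 CPM in the ArcSwe mice. *Ciita* had 0, 0, and 4.08 CPM in the WT mice and 3.36, 4.05, and 4.07 CPM in the ArcSwe mice, from at most 3 UMIs per mouse. Both genes overlapped between the genotypes.

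*Cd274* had 28.1, 33.9, and 42.9 CPM in the WT mice and 66.0, 70.9, and 57.0 CPM in the ArcSwe mice. The groups did not overlap, and neither genotype held a mouse far from its others. The log2 fold change was 0.91 (SE 0.24), between 0.80 and 1.04 with any 1 mouse left out. Of the 6757 genes fitted, 3.34% were higher in every ArcSwe mouse than in every WT mouse and 6.14% lower. Of the 5 fitted genes described here, *Cd74* and *Cd274* were higher in this sense and 0 were lower. At an adjusted p under 0.05, 0 of the 6757 genes passed in edgeR's quasi-likelihood test (0%), hence none of the 5, while 296 genes had an unadjusted p under 0.05 and DESeq2 called 1 gene. With no filter on low counts 15875 genes were fitted and 44 of them passed, *Cd74*, *H2-Aa*, and *H2-Eb1* among them.

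**Figure D2:**
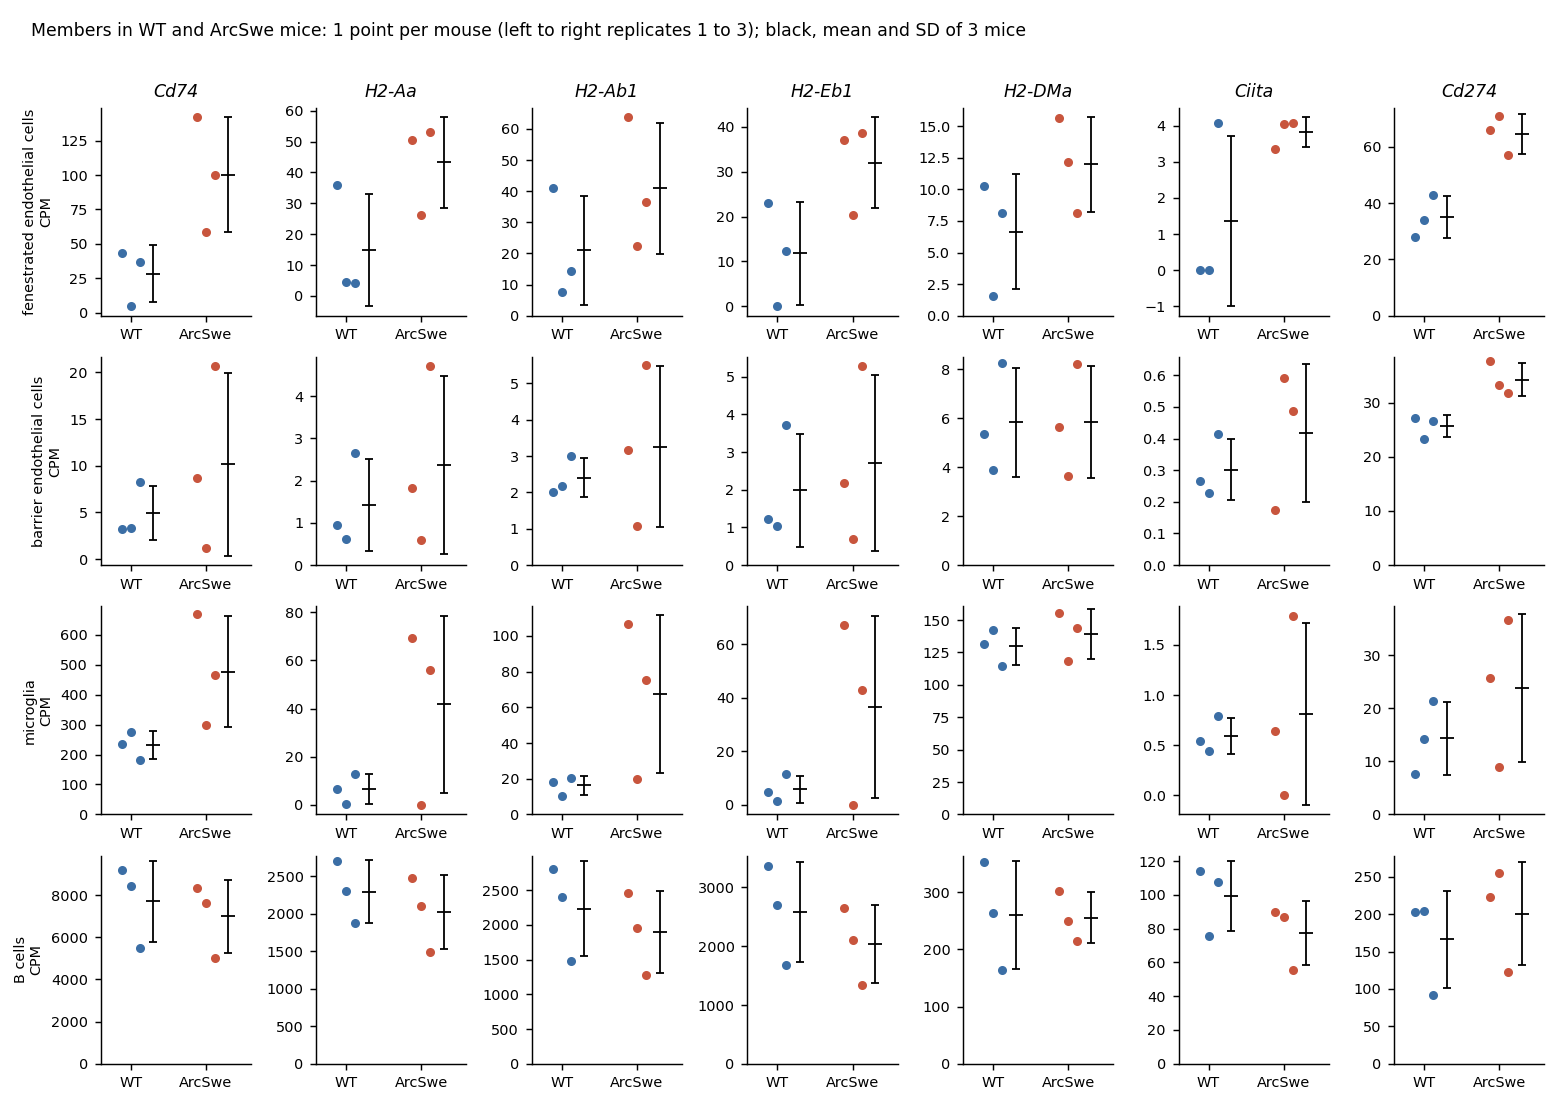
CPM of each gene in the 3 WT (blue) and 3 ArcSwe (red) mice in fenestrated endothelial cells, barrier endothelial cells, microglia, and B cells, with 1 point per mouse and the mean and SD of each genotype in black. Each panel has its own scale, lowest in barrier cells and highest in B cells. The genotypes are apart for *Cd74* in fenestrated cells and microglia and for *Cd274* in both endothelial classes.

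Class II UMIs were unevenly spread over the fenestrated droplets. *Cd74*, *H2-Aa*, *H2-Ab1*, and *H2-Eb1* together gave 537 UMIs in 632 droplets, 108 of which held at least 1. One droplet of ArcSwe replicate 1 held 102 of them, 19.0% of the whole. Droplets with at least 3 class II UMIs made up 3.28%, 0.935%, and 3.39% of the WT mice's droplets and 9.52%, 9.84%, and 10.3% of the ArcSwe mice's. At this cutoff the share was higher in each ArcSwe mouse, from 16, 6, and 12 droplets against 2, 1, and 4 in the WT mice. How often other genes are apart at such a cutoff was not computed. Droplets with at least 1 class II UMI made up 18.0%, 7.48%, and 10.2% in the WT mice and 20.2%, 18.0%, and 27.4% in the ArcSwe mice. WT replicate 1 and ArcSwe replicate 2 were then equal. Droplets with at least 10 numbered 2, 0, and 1 in the WT mice and 6, 1, and 2 in the ArcSwe mice, and these counts overlapped. When the droplet with most class II UMIs was removed from each mouse, an alternative chosen after the data were seen, *H2-Ab1* and *Cd274* could still be fitted and *Cd74*, *H2-Aa*, and *H2-Eb1* could not.

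**Figure D3:**
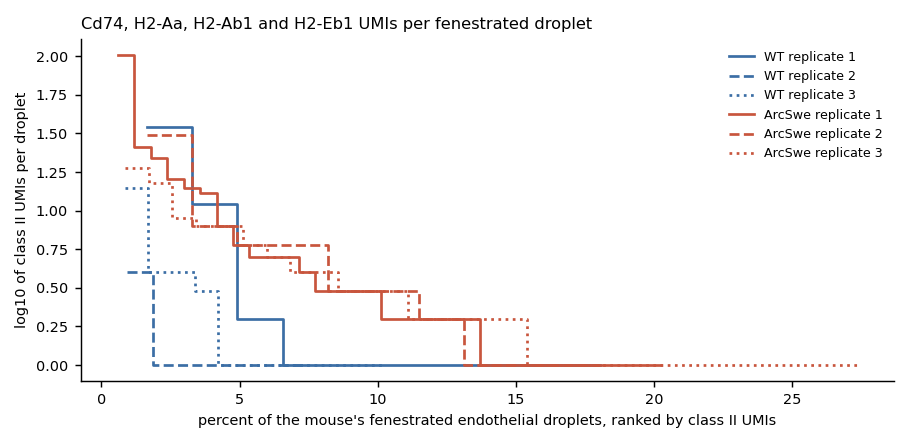
Class II UMIs (*Cd74*, *H2-Aa*, *H2-Ab1*, and *H2-Eb1* summed, log10 scale) of each fenestrated endothelial droplet with at least 1, ranked within its mouse, against the percent of the droplets of that mouse. The curves of the ArcSwe mice (red) reach further to the right at 3 or more UMIs, at 9.52% to 10.3% of droplets, than those of the WT mice (blue), at 0.935% to 3.39%. At 1 or more UMIs, WT replicate 1 and ArcSwe replicate 2 both end at 18.0%.

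The 41 droplets with at least 3 class II UMIs had a median of 7423 UMIs in all, against 4280 in the other 591. They carried the fenestrated markers at 12937 CPM, against 15259 CPM in the others. Of 9 B cell transcripts, 7 were detected in them, at 127 CPM against 12.3 CPM, in 9.76% of the 41 droplets and 4.23% of the others. Of 9 microglial markers, 6 were detected, at 241 CPM against 268 CPM. *Cx3cr1* and *Aif1* could not be among them, because droplets with their UMIs had been left out. Of 8 perivascular macrophage markers, 3 were detected, at 101 CPM against 92.9 CPM, in 48.8% of the 41 droplets and 30.3% of the others. *Pf4* and *Stab1* had UMIs in the fenestrated cells of every mouse, while *Cd163* and *Lyve1* had none in any mouse. Of 9 dendritic cell markers, 3 were detected, at 231 CPM against 249 CPM, in 73.2% and 61.3%. *Zbtb46* and *Clec9a* had UMIs in the fenestrated cells of every mouse. *Cd209a*, *Clec10a*, *Flt3*, *Itgax*, and *Xcr1* had none in any mouse. Of 5 monocyte markers, 1 was detected, at 3.25 CPM against 1.93 CPM. None of 10 T and NK cell markers was detected in the 41. The part of B cell or other RNA in these droplets was not tested.

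As a share of droplets, *Cd74* UMIs were found in 4.27% ± 1.27 of the fenestrated droplets of WT mice and 12.7% ± 4.92 of those of ArcSwe mice (SD, n = 3 each). In smooth muscle cells, which stand for free RNA, the shares were 1.81% ± 0.988 and 3.11% ± 2.69 (SD, n = 3 each). Smooth muscle droplets with *Cx3cr1* or *Aif1* UMIs were kept, unlike those of endothelial cells, so the 2 classes were not filtered alike. Thinned to 1000 UMIs per droplet, the fenestrated shares were 1.74% ± 0.848 in the WT and 6.06% ± 4.00 in the ArcSwe mice, against 0.335% and 0.578% in smooth muscle cells, and they overlapped between the genotypes. The median depth was 3354 to 7121 UMIs in fenestrated droplets and 4624 to 7938 UMIs in smooth muscle droplets. *Cd274* UMIs were found in 16.1% ± 1.82 and 26.2% ± 8.88 of the fenestrated droplets (SD, n = 3 each), against 1.69% and 1.94% in smooth muscle cells. Thinned, those of *Cd274* were 2.97% ± 1.16 and 6.75% ± 2.92 (SD, n = 3 each), against 0.342% and 0.277% in smooth muscle cells, and they overlapped as well. In each of the 6 mice both unthinned shares were above those of the smooth muscle cells of the same mouse. Across mice, the *Cd74* shares of WT fenestrated droplets (2.80% to 5.08%) overlapped those of smooth muscle cells (0.538% to 5.91%), and the *Cd274* shares did not. The unthinned *Cd74* and *Cd274* shares of fenestrated droplets did not overlap between the genotypes. The part of all genes apart in their droplet shares was not computed. Thinning left out 5 WT and 13 ArcSwe droplets.

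In barrier endothelial cells, class II transcripts were scarce and *Cd274* was not. *Cd74* had 3.19, 3.30, and 8.26 CPM in the WT mice and 8.70, 1.18, and 20.6 CPM in the ArcSwe mice. ArcSwe replicate 2 was the lowest of the 6 and ArcSwe replicate 3 the highest, so the groups overlapped. *H2-Aa*, *H2-Ab1*, and *H2-Eb1* lay between 0.591 and 5.50 CPM in every mouse, *H2-DMa* between 3.64 and 8.26 CPM, and *Ciita* between 0.174 and 0.591 CPM, and all 5 overlapped between the genotypes. The log2 fold changes were 1.13 (SE 0.77) for *Cd74*, 0.85 (SE 0.72) for *H2-Aa*, 0.52 (SE 0.48) for *H2-Ab1*, 0.55 (SE 0.69) for *H2-Eb1*, and 0.063 (SE 0.33) for *H2-DMa*. Without ArcSwe replicate 3 they were 0.15, -0.065, -0.054, -0.32, and -0.25, and without WT replicate 3 those of *H2-Aa* and *H2-Eb1* were 1.64 and 1.33. Without WT replicate 2 that of *H2-DMa* was also negative. *Ciita* was too low to be fitted.

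*Cd274* had 27.1, 23.3, and 26.6 CPM in the WT mice and 37.7, 33.2, and 31.8 CPM in the ArcSwe mice. All ArcSwe mice were above all WT mice, by a smaller step than in fenestrated cells. The log2 fold change was 0.45 (SE 0.10), and it stayed between 0.36 and 0.51 over 16 alternatives. Among the 13464 genes fitted in barrier cells, 3.39% were higher in every ArcSwe mouse than in every WT mouse and 7.38% lower. Of the 6 fitted genes described here, only *Cd274* was higher in this sense and 0 were lower. At an adjusted p under 0.05, 0 of the 13464 genes passed in edgeR (0%), 588 had an unadjusted p under 0.05, and DESeq2 called 13 genes.

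The difference in *Cd274* was looked at along the vessel tree. In capillary cells it had 28.0, 21.3, and 28.0 CPM in the WT mice and 36.1, 35.2, and 32.3 CPM in the ArcSwe mice. In venous cells it had 23.3, 23.1, and 26.1 CPM in the WT mice and 39.9, 29.8, and 31.3 CPM in the ArcSwe mice. The genotypes were apart in both. The share of all genes apart in this way was not computed for the zones. In the whole barrier class it was 3.39% higher and 7.38% lower in the ArcSwe mice. In arterial cells it had 27.5, 32.3, and 24.1 CPM in the WT mice and 39.2, 30.6, and 31.1 CPM in the ArcSwe mice, and they overlapped because WT replicate 2 was above 2 ArcSwe mice. The difference between the zones was not tested.

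*Cd274* UMIs were found in 9.75% ± 1.30 of the barrier droplets of WT mice and 12.02% ± 2.59 of those of ArcSwe mice (SD, n = 3 each). Thinned to 1000 UMIs per droplet, these were 2.34% ± 0.0765 and 3.24% ± 0.529 (SD, n = 3 each). The thinned shares lay between 2.28% and 2.43% in the WT mice and between 2.65% and 3.67% in the ArcSwe mice, and did not overlap, while the unthinned shares did. The part of all genes apart in their thinned shares was not computed. The smooth muscle shares at the same depth were 0.342% and 0.277%. *Cd74* UMIs were in 2.11% and 3.37% of barrier droplets, close to the 1.81% and 3.11% of smooth muscle droplets. Droplets with *Cx3cr1* or *Aif1* UMIs were left out of the former only.

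**Figure D4:**
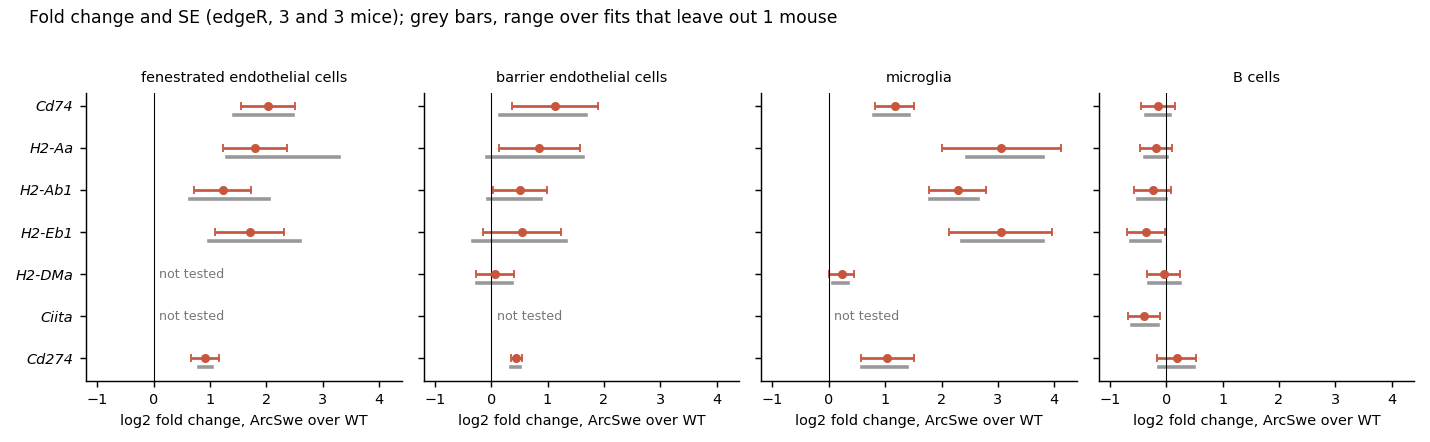
Log2 fold change of ArcSwe over WT for each gene in 4 cell classes (red point and SE, edgeR, 3 and 3 mice) with the range over the fits that leave out 1 mouse (grey bar). *Cd274* in both endothelial classes has narrow bars right of 0, while the class II chains of barrier cells have bars that reach below 0 and those of microglia lie furthest right.

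The genotype effects of the 2 endothelial classes were set side by side in a fit with both classes and the mouse as a block. The extra log2 fold change in fenestrated over barrier cells was 1.17 (SE 0.56) for *Cd74* and 0.44 (SE 0.26) for *Cd274*, and between 0.79 and 1.32 for the 3 chains and *H2-DMa*. That of *Ciita* was 1.27, but 7.58 without WT replicate 3, the only WT mouse with *Ciita* UMIs in fenestrated cells, so it rests on the prior count of the fit. In this fit 1 of 12657 genes had an adjusted p under 0.05 (0.0079%), none of them among the 7. *Cd74* was among 11 of 12961 genes that passed without ArcSwe replicate 3. Its extra fold change was then 2.05, and it was 1.83 without WT replicate 1 and 0.75 without WT replicate 2. For *H2-Aa* it was -0.081 without WT replicate 3 and 1.67 without ArcSwe replicate 3, and for *H2-Aa*, *H2-Ab1*, and *H2-Eb1* it was 2.77, 1.70, and 2.53 without WT replicate 1.

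The microglial libraries differed in state before any genotype was compared. Clusters low in ribosomal protein transcripts held 26.8%, 33.9%, and 94.9% of the microglia in the WT mice and 70.5%, 94.1%, and 78.4% in the ArcSwe mice, so that WT replicate 3 stood with the ArcSwe mice. A cluster of 582 microglia with markers of disease-associated microglia (DAM), led by *Cst7*, held 25 WT and 557 ArcSwe cells, 423 of them from ArcSwe replicate 3 and 128 from ArcSwe replicate 1. ArcSwe replicate 2 had 6 cells in it. Median depth was 1108 to 1998 UMIs in the ArcSwe mice and in WT replicate 3 it was 1236.5, while WT replicates 1 and 2 had 5950 and 5371.5.

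*Cd74* had 235, 275, and 183 CPM in the microglia of the WT mice and 671, 297, and 465 CPM in those of the ArcSwe mice. Every ArcSwe mouse was above every WT mouse, though ArcSwe replicate 2 only by a small step. The log2 fold change was 1.17 (SE 0.35). *H2-Aa* had 6.63, 0.221, and 13.03 CPM in the WT mice and 69.2, 0, and 56.0 CPM in the ArcSwe mice. *H2-Ab1* had 17.9, 10.1, and 20.5 CPM in the WT mice and 107, 19.7, and 75.4 CPM in the ArcSwe mice. *H2-Eb1* had 4.66, 1.54, and 11.5 CPM in the WT mice and 67.0, 0, and 42.9 CPM in the ArcSwe mice. All 3 chains were high in ArcSwe replicates 1 and 3 and at the WT level or at 0 in ArcSwe replicate 2, so the genotypes overlapped.

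The log2 fold changes of the chains in microglia were 3.06 (SE 1.06) for *H2-Aa*, 2.29 (SE 0.51) for *H2-Ab1*, and 3.05 (SE 0.91) for *H2-Eb1*. Without WT replicate 3 those of *H2-Aa* and *H2-Eb1* were 3.80 and 3.79, without WT replicate 2 that of *H2-Aa* was 2.45, and without ArcSwe replicate 1 that of *H2-Eb1* was 2.36. *H2-DMa* overlapped between the genotypes, at 114 to 142 CPM in the WT mice and 118 to 156 CPM in the ArcSwe mice, with a log2 fold change of 0.23 (SE 0.22). *Ciita* was at most 1.79 CPM. *Cd274* had 7.53, 14.1, and 21.3 CPM in the WT mice and 25.8, 8.96, and 36.5 CPM in the ArcSwe mice, overlapping through ArcSwe replicate 2, with a log2 fold change of 1.04 (SE 0.47). Of the 11106 genes fitted, 5.54% were higher in every ArcSwe mouse than in every WT mouse and 14.2% lower. Of the 6 fitted genes described here, *Cd74* was higher in this sense and 0 were lower. At an adjusted p under 0.05, 6 of 11106 genes passed in edgeR (0.054%), 5 of them higher in the ArcSwe mice (0.045%), and none was among these 6. *H2-Ab1* was among the 140 of 11106 genes called by DESeq2, the 269 of 11460 without WT replicate 3, and the 29 of 11684 without ArcSwe replicate 2. All 3 chains were among the 118 of 11106 with a replicate block.

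The genotype values in microglia moved with the makeup of the class. Within the DAM cluster, in the 2 mice with most of its cells, *Cd74* had 974 CPM in ArcSwe replicate 1 and 572 CPM in ArcSwe replicate 3, and *Cd274* had 49.2 and 58.0 CPM. The 19 cells of WT replicate 3 in it had *Cd74* at 993 CPM, above both. Without this cluster, an alternative chosen after the data were seen, the log2 fold change of *Cd274* was 0.25, that of *H2-Ab1* 1.35, and that of *H2-DMa* -0.18, and those of *Cd74*, *H2-Aa*, and *H2-Eb1* stayed positive. Without the low-ribosomal clusters, that of *Cd274* was 1.82, that of *H2-Ab1* 2.89, and that of *H2-Eb1* 3.79. Without the droplets with B cell UMIs, those of *H2-Aa*, *H2-Ab1*, and *H2-Eb1* were 2.13, 1.59, and 2.41. With all genes used for clustering, those of *H2-Aa*, *H2-Ab1*, and *Cd274* were 3.71, 2.94, and 1.69. Within the low-ribosomal clusters, where all mice had over 200 cells, *Cd74* had 274, 310, and 159 CPM in the WT mice and 549, 338, and 395 CPM in the ArcSwe mice. *Cd74* was apart between the genotypes among these cells. The share of all genes apart in this way was not computed for them. Over all microglia it was 5.54% higher and 14.2% lower in the ArcSwe mice. In the clusters that were neither low-ribosomal nor DAM, *Cd74* overlapped, at 223, 271, and 97.9 CPM in the WT mice and 499, 90.8, and 138 CPM in the ArcSwe mice, where ArcSwe replicate 2 had 7 cells.

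Perivascular macrophages were too few to be compared, with 0, 7, and 21 cells in the WT mice and 7, 1, and 17 cells in the ArcSwe mice. In the mice with at least 10, *Cd74* had 4351 CPM in WT replicate 3 and 1579 CPM in ArcSwe replicate 3, and *H2-Aa* had 1205 and 693 CPM. With 1 mouse per genotype there is no replicate check. Over all 53 cells, the class had 505 UMIs of *Cd74*, 165 of *H2-Eb1*, 3 of *Ciita*, and 0 of *Cd274*.

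B cells, the richest named source of class II RNA in the libraries, did not separate the genotypes. *Cd74* had 9174, 8423, and 5507 CPM in the WT mice and 8324, 7618, and 5038 CPM in the ArcSwe mice. The third replicate of each genotype was the lowest, and the groups overlapped. The same held for the other 6 genes, with log2 fold changes between -0.40 for *Ciita* and 0.19 for *Cd274*. Some took the other sign with 1 mouse left out, *Cd74* and *H2-DMa* without WT replicate 1 or ArcSwe replicate 3, *H2-Aa* without ArcSwe replicate 3, and *Cd274* without WT replicate 3. Of 6466 genes, 4.81% were higher in every ArcSwe mouse than in every WT mouse and 5.35% lower, and 0 of the 7 were either. At an adjusted p under 0.05, 0 genes passed in edgeR (0%) and 0 in DESeq2, while 315 had an unadjusted p under 0.05 in edgeR. B cells made up 2.42%, 2.00%, and 1.25% of the cells kept in the WT mice and 1.71%, 1.39%, and 1.27% in the ArcSwe mice. The difference of -0.434 percentage points gave p = 0.4 (exact two-sided permutation test, where 0.1 is the smallest p that 3 mice against 3 allow).

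To set the class II levels beside B cell RNA found in the sums of other cells, the level that each gene would have at the share of B cell RNA was computed in each sum from 9 B cell transcripts. In barrier endothelial cells this level came to between 52.0% and 160% of the measured *Cd74*, and in smooth muscle cells to between 37.8% and 149%. In fenestrated cells it came to 11.1%, 59.9%, and 20.3% of the measured *Cd74* in the WT mice and 20.7%, 0%, and 19.7% in the ArcSwe mice. For *Cd274* it was at most 1.19% in either endothelial class. The 9 transcripts summed to between 4.62 and 14.3 CPM in fenestrated cells of the WT mice and between 0 and 47.0 CPM in those of the ArcSwe mice, with all 9 at 0 in ArcSwe replicate 2. In microglia the computed level of *H2-Aa* exceeded the measured one in all WT mice, and *Ighm* was at 53.7 to 144 CPM there while *Igkc* was at 0.441 to 10.2 CPM, so the B cell transcripts did not keep the ratio they have in B cells.

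**Figure D5:**
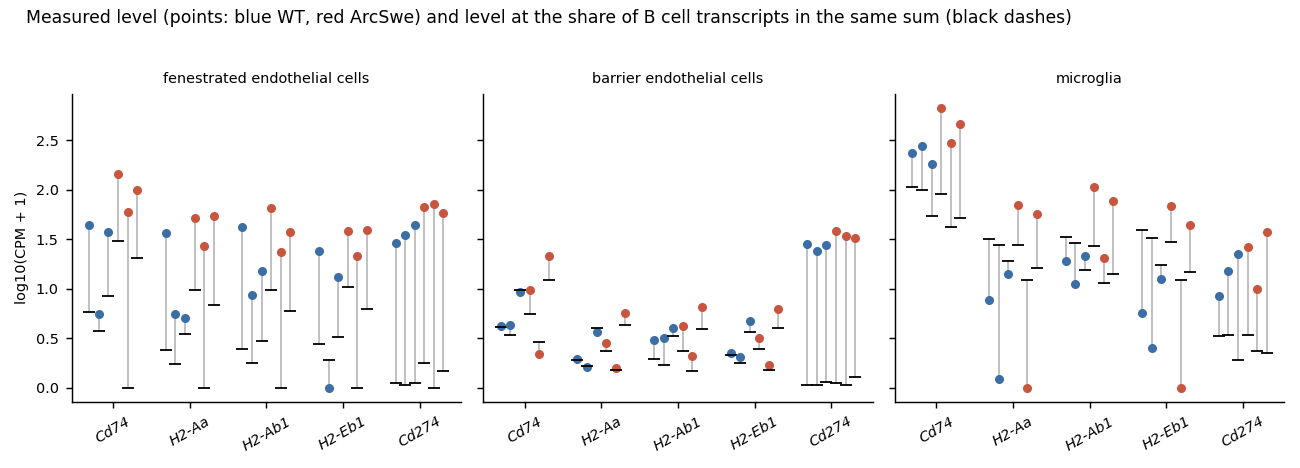
Measured level of 5 genes in each mouse (points, blue WT and red ArcSwe) and the level each would have at the share of B cell transcripts in the same sum (black dashes), as log10(CPM + 1), in 3 cell classes. In barrier cells the *Cd74* points lie near the dashes, whereas the *Cd274* points of both endothelial classes and most *Cd74* points of fenestrated cells lie above them.

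The level at the share of microglial RNA was computed in the same way, from the microglial markers other than *Cx3cr1* and *Aif1*. No such level was computed for perivascular macrophages or the unnamed myeloid cells described at the end, in which *Cd74* was higher than in microglia. These microglial markers summed to between 118 and 398 CPM in fenestrated cells of the WT mice and between 154 and 497 CPM in those of the ArcSwe mice. In barrier cells they summed to between 130 and 398 CPM in the WT and between 212 and 470 CPM in the ArcSwe mice. The genotypes overlapped in both classes. At the share of microglial RNA, *Cd74* would have reached 82.5%, 114%, and 88.7% of its measured level in barrier cells of the WT mice and 221%, 573%, and 126% in those of the ArcSwe mice, and 57.0% to 721% in smooth muscle cells. In fenestrated cells it would have reached 5.49%, 77.2%, and 19.9% in the WT mice and 14.6%, 8.36%, and 27.6% in the ArcSwe mice. In WT replicate 2 the B cell and microglial shares together exceeded the measured *Cd74* of fenestrated cells. For *Cd274* the microglial share gave at most 3.80% in fenestrated and 6.44% in barrier cells. The *Cd74* of barrier cells was no larger than these 2 shares together in any mouse, and the *Cd274* of both endothelial classes was larger in every mouse. The 2 shares are not separate, as the microglial sums themselves held 66.3 to 167 CPM of the B cell transcripts. A computed level above the measured one cannot all be carried-over RNA, so these levels do not measure its amount. How much of either gene was carried over was not tested.

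The rest of the class II pathway was read from the same fits over a list of 52 genes in the table, members included. In fenestrated cells 26 were fitted, 18 with a positive and 8 with a negative fold change, at a median log2 fold change of 0.23 against 0.0020 over all genes. Without the 7 genes described here, the median over 21 was 0.098. None passed the test. Of the interferon gamma route, *Ifng* itself was at 0 in all 6 mice, the receptor subunit *Ifngr1* was at 215 ± 19.8 CPM in the WT and 197 ± 38.9 CPM in the ArcSwe mice (SD, n = 3 each), and the transcription factor *Irf1* was at 375 ± 106 and 447 ± 47.9 CPM. The kinase *Jak1* was at 241 ± 60.5 and 261 ± 41.5 CPM. Of the cathepsins that trim the invariant chain, *Ctsl* was at 435 ± 14.6 and 406 ± 77.7 CPM and *Ctsb* at 183 ± 12.05 and 192 ± 41.8 CPM. Among the proteins that bind class II promoters with CIITA, *Nfya* was at 35.5 ± 2.69 and 36.8 ± 5.41 CPM and *Nfyb* at 36.7 ± 5.93 and 41.1 ± 3.42 CPM. *Mif*, the cytokine that binds CD74, was at 82.3 ± 22.5 and 69.3 ± 18.9 CPM.

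In barrier cells 41 list genes were fitted, 34 with a positive and 7 with a negative fold change, and none passed. Their median log2 fold change was 0.15 against -0.0020 over all genes, and 0.14 without the genes described here. *Irf1* was at 209 ± 67.0 CPM in the WT and 223 ± 78.5 CPM in the ArcSwe mice (SD, n = 3 each), and *Jak1* at 118 ± 7.85 and 117 ± 4.11 CPM. Of the other surface proteins with partners on T cells, *Vsir* was at 39.4 ± 11.4 and 42.4 ± 9.08 CPM and *Cd40* at 25.9 ± 2.75 and 26.1 ± 5.70 CPM.

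In microglia 42 list genes were fitted, 27 with a positive and 15 with a negative fold change, at a median log2 fold change of 0.32 against -0.026 over all genes and 0.15 without the genes described here. *Cd44*, a surface receptor that signals together with CD74, passed the test and rose. It had 9.32, 9.04, and 13.4 CPM in the WT mice and 43.5, 44.8, and 73.1 CPM in the ArcSwe mice, with a log2 fold change of 2.52 (SE 0.29, adjusted p = 0.0378 in edgeR). All ArcSwe mice were above all WT mice, including replicate 2, in which the chains were low. The fold change was positive in all 17 alternatives, but the call was lost in edgeR without WT replicate 1 (adjusted p = 0.263), WT replicate 2 (0.176), ArcSwe replicate 1 (0.167), or ArcSwe replicate 3 (0.181). It was also lost without the droplets with B cell UMIs (adjusted p = 0.199 in edgeR) and without the DAM cluster, where the log2 fold change of *Cd44* was 1.40 (adjusted p = 0.321 in edgeR). None of the other 35 fitted genes beyond those described above passed, 12 of them at an unadjusted p under 0.05, as were 917 of all 11106 genes. *Mif* was at 79.4 ± 14.1 and 160 ± 22.1 CPM (SD, n = 3 each). *Cd83*, whose product keeps class II at the cell surface, was at 597 ± 167 and 1297 ± 368 CPM, and *March1*, a ubiquitin ligase that removes it, at 146 ± 48.8 and 87.3 ± 10.8 CPM. *Pdcd1*, which encodes PD-1, was at 3.65 ± 2.71 and 20.6 ± 8.59 CPM. *Ctss*, the main protease of the invariant chain in these cells, was at 3303 ± 865 and 3602 ± 740 CPM, and *Cd86*, a costimulatory ligand, at 789 ± 70.9 and 1119 ± 153 CPM. Other parts of the list were mixed. Of 7 fitted genes of the interferon gamma route, 3 had a positive and 4 a negative fold change. Of 7 fitted regulators of class II transcription, 2 had a positive and 5 a negative one.

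In B cells 39 list genes were fitted, 15 with a positive and 24 with a negative fold change, at a median log2 fold change of -0.097 against -0.0063 over all genes, and none passed. *Cd83* was at 728 ± 347 CPM in the WT and 748 ± 78.3 CPM in the ArcSwe mice (SD, n = 3 each), *Cd86* at 485 ± 206 and 530 ± 18.4 CPM, and *H2-Ob*, a partner of the editor that restrains H2-DM, at 340 ± 112 and 293 ± 119 CPM.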

How the data were processed

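Each of the 6 mice gave 1 10x library. The authors ran Cell Ranger 7.0.0 on the mm10 transcriptome, to which they had added *Clec7a* and human *NOTCH3* sequences, and deposited the resulting UMI count matrices without normalization. Samples of other experiments in the study are not covered here.

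The filter required 500 to 4500 genes per cell and a mitochondrial share under 10%. The 2000 most variable genes, without the 7 genes and the pathway list, gave 30 principal components, and a graph over 20 neighbours was clustered (leidenalg 0.10.2, Python 3.11.15, resolution 1). Clusters were named from markers. The naming thresholds were set after the data were seen, and clusters with markers of several types were left unnamed. No doublet caller was run. Endothelial droplets with microglial UMIs were left out, as in the methods of the study, and so were pseudogenes, Rik genes, and genes of ribosomal proteins and mitochondria. The study also removed a microglial cluster low in ribosomal and high in mitochondrial genes. Low-ribosomal microglial clusters were kept in the main fit here and left out in an alternative. Without them 254 of 9832 genes passed in edgeR, *H2-Ab1* and *H2-Eb1* among them, against 6 of 11106 in the main fit. Sums of at least 10 cells per mouse and class went through filterByExpr, TMM scaling, and the quasi-likelihood test (glmQLFit, glmQLFTest) of edgeR 4.0.16 in R 4.3.3, where genotype was the only term, with Benjamini-Hochberg adjustment over all genes. DESeq2 1.42.0 was an alternative, as were RLE scaling, no low-count filter, a filter at 1000 genes and 5% mitochondrial counts, resolution 2, all genes in the clustering, and leaving out mice, droplets, or clusters. Intervals and floors of 3 counts cover counting error only. Nothing in the labels names litters or batches.

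Counts simulated for each class, with 200 genes changed, served to check the test. It recovered 57% of 2-fold and 93% of 4-fold changes in fenestrated cells, 75% and 91% in barrier cells, 6% and 62% in microglia, and 27% and 90% in B cells.

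The genes described and the lists were chosen with earlier results of these data known. Genes named beyond them were those of the pathway list with an adjusted p under 0.05, at most 3 of each role with the highest CPM, and the 5 genes most like *Cd74* and *Cd274*. Figures were drawn with matplotlib 3.10.9.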

Additional observations from a re-analysis of the deposited data

Results flagged for a closer look

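A pair of values came from cells outside the comparisons, with every ArcSwe mouse above every WT mouse. The share of all genes higher in this sense was not computed for these cells, and it was 3.34% to 5.54% in the fitted classes. In haemoglobin-rich droplets, *Cd274* had 24.4, 18.2, and 25.2 CPM in the WT mice and 27.7, 30.7, and 34.2 CPM in the ArcSwe mice, a mean of 30.9 CPM in the latter. These 608 droplets also held barrier endothelial markers. In T and NK cells, *Cd74* had 10.7, 20.9, and 22.4 CPM in the WT mice and 24.5, 30.04, and 171 CPM in the ArcSwe mice, a mean of 75.1 CPM that rests on ArcSwe replicate 3. At the share of B cell transcripts in the same sums, *Cd74* would have reached 504%, 200%, and 169% of these levels in the WT mice and 188%, 82.4%, and 79.3% in the ArcSwe mice, and its part was not tested.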

How the results depend on the processing

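The counts of genes passing in edgeR were 0 in fenestrated, barrier, and B cells, 6 in microglia, and 1 for the difference between the endothelial classes. DESeq2 gave 1 in fenestrated cells, 13 in barrier cells, and 140 in microglia. Fits with no filter on low counts gave 44 of 15875 genes in fenestrated cells, 132 of 19576 in microglia, and 44 of 15656 in B cells. In microglia the count was 43 at 1000 genes and 5% mitochondrial counts, 133 with all genes used for clustering, 1 without droplets with B cell UMIs, 254 without low-ribosomal clusters, and 1 without the DAM cluster. Leaving out 1 mouse gave 0 to 269 in microglia (269 without WT replicate 3, 29 without ArcSwe replicate 2, 2 and 1 without WT replicates 1 and 2, and 0 without ArcSwe replicate 1 or 3), 0 to 10 in B cells (10 without WT replicate 3), and 1 to 73 for the difference between the classes (73 without ArcSwe replicate 2 and 11 without ArcSwe replicate 3). The cause was not tested. *H2-Ab1* also passed in microglia with no filter on low counts, with all genes used for clustering, and without low-ribosomal clusters, the first and last of these with *H2-Eb1*, and in all other alternatives not named here or beside the results none of the 7 genes passed. A replicate block gave 0 in fenestrated, barrier, and B cells and 118 in microglia. Deviations of same-numbered mice from their genotype's mean had correlations of 0.076, 0.11, and 0.20 in fenestrated cells. Mice of different numbers had -0.17 to 0.075 there, below all same-numbered pairs. In microglia same-numbered mice had 0.35, 0.049, and 0.32, and mice of different numbers -0.38 to 0.30. The labels do not say that the numbers pair the mice, so the main fits held no replicate term. Whether same-numbered mice share a batch was not tested.

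Averaged over all 6 mice, shares of droplets with a UMI were 3.90% thinned and 8.48% unthinned for *Cd74* and 4.86% and 21.2% for *Cd274* in fenestrated cells, and 0.904% and 2.74% for *Cd74* and 2.79% and 10.9% for *Cd274* in barrier cells. The B cell share difference was -0.753 to -0.169 with 1 mouse left out. Alternatives for perivascular macrophages were not run, as too few mice had 10 cells. The class II values of fenestrated cells rest on 537 UMIs in all.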

Other observations

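The levels of *Cd274* in T and NK cells were 128, 83.6, and 95.2 CPM in the WT mice and 42.9, 60.1, and 83.3 CPM in the ArcSwe mice. Every ArcSwe mouse was below every WT mouse, but the nearest mice, at 83.6 and 83.3 CPM, were almost equal. The class held 93 *Cd274* UMIs in all. The share of all genes lower in this sense was not computed for this class, and it was 5.35% to 14.2% in the fitted classes. This difference was not tested, and 133 WT and 166 ArcSwe cells were behind it.

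A mixed cluster of 279 cells, which held the perivascular macrophages, neutrophils, and cells with markers of several types, had the cells with the most class II RNA. In subclusters of it that stayed unnamed, *Cd74* was at 21619 CPM over 45 cells led by *Ifnb1*, *Ccl4*, and *Pmepa1*, in which 8 of 9 microglial markers were detected, and at 17986 CPM over 36 cells led by *Tnip3*, *Mgl2*, and *Ccl22*, where *Ciita* was at 177 CPM. *Cd274* was at 27.0 CPM in the 45 cells and at 12.1 CPM in the 36 cells. These levels rest on only 4 and 3 UMIs, so whether *Cd274* was low in these cells cannot be decided. A further 52 cells, led by *Cd36*, *Pparg*, and *Gngt2*, had *Cd74* at 1345 CPM and *Cd274* at 237 CPM, the highest *Cd274* level of the subclusters. No mouse had more than 19 cells in any of these subclusters, so no genotype was compared.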
